A study of Mus musculus with 6 samples.

Results

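The 10 genes described here serve calcium cycling by the sarcoplasmic reticulum of heart muscle. They are Atp2a2, Sln, Pln, Hrc, S100a1, Ryr2, Casq2, Trdn, Jph2 and Slc8a1, and include regulators, a membrane tether and the exchanger of the cell surface. They were chosen by symbol from 52550 genes in the count tables, and each matched 1 Ensembl identifier in the GENCODE mouse annotation of GRCm38. RNA was measured in 3 control and 3 GR-cKO libraries of cultured neonatal cardiomyocytes from mice of postnatal day 1. GR-cKO denotes loss of the glucocorticoid receptor, the nuclear receptor for corticosterone and cortisol, in cardiomyocytes, and the comparison asked how gene expression differs without it. Both groups carry the same treatment label, were grown for 48 hours with 5% horse serum and 10% FBS, and were then kept for 24 hours without serum. Not given in the sources used here are the Cre line, the floxed allele, the exact genotype of the controls and how many animals went into a replicate. The labels speak of biological replicates without saying what was separate, so p-values cover only library-to-library spread, possibly technical.

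With each heartbeat, calcium entering through surface channels opens the ryanodine receptor, and calcium stored in the sarcoplasmic reticulum is released onto the myofilaments. Relaxation follows when the pump encoded by Atp2a2 returns calcium to the store and the exchanger encoded by Slc8a1 moves the remainder out of the cell. Around birth this system is still maturing in the mouse heart, and T-tubules, the surface folds that bring entry channels close to release channels, have yet to form.

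The 6 libraries held 19371508 to 22583596 gene counts. Nr3c1, which encodes the receptor, was measured at 68.2, 73.9 and 72.4 CPM (counts scaled to library size) in the controls, against 46.2, 42.8 and 44.1 CPM in the GR-cKO libraries. A tag at the 3' end need not report the deletion. Why Nr3c1 RNA remained in the GR-cKO libraries was not tested. Of 10 cardiomyocyte markers, all measured, 6 rose and 1 fell, and together they took 2.68% ± 0.0465 of counts in control and 3.28% ± 0.0182 in GR-cKO (SD, n = 3 each). Actc1 alone went from 6343 ± 98.3 CPM in control to 9800 ± 207 CPM in GR-cKO. Tnni3, Cox6a2 and Pgam2 did not pass, and Ckm fell. The groups also differed in sex-linked RNA, with Xist at 271 to 293 CPM in control and at 0 to 0.0996 CPM in GR-cKO, and 4 Y-linked genes at 25.6 to 28.5 and 115 to 130 CPM. Every control library held both Xist and Y-linked RNA, as a mix of cells from male and female animals would. GR-cKO libraries held Y-linked RNA almost without Xist, as male cells would. All 10 genes lie on autosomes, but effects of sex and of genotype cannot be told apart in these libraries.

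The 10 genes changed in both directions. Atp2a2, its small membrane inhibitors Sln and Pln, and the luminal protein gene Hrc fell in GR-cKO, while the release channel Ryr2, its calcium buffer Casq2 and the regulator S100a1 rose, though not when libraries were scaled to cardiomyocyte markers. Trdn, Jph2 and Slc8a1 did not pass the test. Thus 4 of the 10 genes were lower, where 7.19% of all 14386 tested genes were lower, and 3 were higher, where 7.63% were higher. Called in either direction were 7 of the 10, against 14.8% of all tested genes. Among the 6578 tested genes at least as abundant as Slc8a1, the scarcest of the 10, 21.1% were called, 10.9% higher and 10.3% lower. The groups did not overlap in the same 7 genes, and in 29.9% of all tested genes. The median log2 fold change of the 10 was 0.02 and the mean -0.12, and the median of all tested genes was -0.01. Summed, the 10 genes took 0.509% ± 0.00832 of counts in control and 0.429% ± 0.00246 in GR-cKO (SD, n = 3 each). Without Atp2a2 their summed level was 3060 ± 103 CPM in control, against 2890 ± 63.6 CPM in the GR-cKO libraries.

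Promoter windows from RefSeq (build GRCm38.p6, 250 bases before to 50 after the start of transcription) were at hand for 7 of the 10 genes. None was at hand for Atp2a2, Sln and Trdn, so Atp2a2 and Sln, which also fell, were not searched. Jph2 had 2 windows, of which only the one listed first was searched. The 4 shown belong to Pln and Hrc, the genes that fell and had a window, and to the pair Ryr2 and Casq2, whose ratio varied little between libraries. Each is read 5′ to 3′ on the strand of its gene. Capitals mark the glucocorticoid receptor half-site AGAACA, the hypoxia-factor core ACGTG and the core TAAAAATA of a site for the muscle factor MEF2, on either strand.
Pln, chr10:53337436-53337735, plus strand: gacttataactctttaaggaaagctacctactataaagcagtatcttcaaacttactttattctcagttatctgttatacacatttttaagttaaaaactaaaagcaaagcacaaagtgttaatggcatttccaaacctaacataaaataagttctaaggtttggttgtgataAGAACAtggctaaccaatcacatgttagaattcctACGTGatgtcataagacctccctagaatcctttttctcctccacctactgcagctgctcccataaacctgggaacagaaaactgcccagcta
Hrc, chr7:45335019-45335318, plus strand: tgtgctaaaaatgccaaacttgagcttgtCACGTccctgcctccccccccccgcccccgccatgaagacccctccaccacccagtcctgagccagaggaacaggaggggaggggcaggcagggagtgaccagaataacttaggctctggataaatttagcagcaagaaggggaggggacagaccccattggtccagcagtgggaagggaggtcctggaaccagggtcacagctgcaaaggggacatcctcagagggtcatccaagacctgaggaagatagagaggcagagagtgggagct
Ryr2, chr13:12106896-12107195, minus strand: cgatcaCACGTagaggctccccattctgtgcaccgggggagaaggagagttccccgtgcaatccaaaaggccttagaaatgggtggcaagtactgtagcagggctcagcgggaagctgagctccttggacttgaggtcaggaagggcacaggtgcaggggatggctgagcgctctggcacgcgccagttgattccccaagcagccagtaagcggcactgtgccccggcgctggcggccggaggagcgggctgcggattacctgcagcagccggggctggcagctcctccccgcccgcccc
Casq2, chr3:102086165-102086464, plus strand: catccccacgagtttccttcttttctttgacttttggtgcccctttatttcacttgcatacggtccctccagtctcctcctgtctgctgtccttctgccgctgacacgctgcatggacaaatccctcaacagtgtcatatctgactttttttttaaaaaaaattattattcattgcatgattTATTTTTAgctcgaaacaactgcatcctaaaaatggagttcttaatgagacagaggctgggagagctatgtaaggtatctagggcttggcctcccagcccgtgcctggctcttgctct

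The full palindromic response element, AGAACA followed after 3 bases by TGTTCT, was in none of the 7 windows, and in 0.00913% of 32851 mouse promoter windows of the same length. The half-site AGAACA was in the Pln window alone among the 7, starting 77 bases before the start of transcription, and in 19% of all windows. The hypoxia-factor core ACGTG was in the windows of Pln, Ryr2 and Hrc and in 19.6% of all windows. The MEF2 core TAAAAATA was in those of Casq2 and Slc8a1 and in 2.72% of all windows. These are matches of letters on both strands, and binding was not measured.

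Atp2a2 encodes the calcium pump of the sarcoplasmic reticulum (ENSMUSG00000029467, GRCm38 chromosome 5, 122453513 to 122502225, minus strand). It was the most abundant of the 10, ranked 49 among the 14386 tested genes by mean level. With 3' tags a level counts transcript ends and does not grow with gene length. Atp2a2 stood at 2009.8, 2006.2 and 1907 CPM in the 3 control libraries and at 1458, 1474 and 1436.5 CPM in the 3 GR-cKO libraries. Every GR-cKO library lay below every control library, and the spread within each group was under 3% of its mean. The log2 fold change was -0.44 ± 0.06 (SE; edgeR quasi-likelihood test, adjusted p = 2.8e-06), which left GR-cKO at 73.8% of the control level. The annotation gives 2 coding transcripts with different 3' ends, which the gene count adds together, so the cardiac and the widely expressed isoform of the pump were not separated. The paralogues Atp2a1 and Atp2a3 together had 10 to 37 counts in a library, so Atp2a2 accounted for 99.89% to 99.98% of pump counts.

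Sln encodes sarcolipin, a short membrane peptide that binds the pump and lowers its efficiency, and is typical of atrial muscle (ENSMUSG00000042045, chromosome 9, 53850164 to 53854560, plus strand). Its level was 321, 334 and 298 CPM in control and 163, 181 and 181 CPM in GR-cKO. The highest GR-cKO library was well below the lowest control library. This was the largest change among the 10, with a log2 fold change of -0.86 ± 0.07 (edgeR, adjusted p = 3.76e-09), 1.82-fold lower. Of 10 other atrial markers, Myl7, Kcnj3, Tbx5 and Gja5 fell, Nppa rose, and 5 did not pass, and their summed level was 17620 to 17780 CPM in control and 20430 to 21550 CPM in GR-cKO. Nppa made up 76.4% to 86.6% of that sum, and the other 9 markers summed to 4059 to 4160 CPM in control and to 2728 to 3000 CPM in GR-cKO. Among those 9, Myl7 alone went from 2585 ± 61.4 to 1575 ± 111 CPM. Kcna5 (log2 fold change 0.19) and Dkk3 (0.06), which did not pass, pointed up. None of the 10 was at 0 in all libraries. Their part in the fall of Sln was not tested. In bulk RNA, fewer cells of a type and less RNA per cell cannot be told apart, for Sln and for the other genes alike.

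Pln encodes phospholamban, the main inhibitor of the cardiac pump, whose hold is released when beta-adrenergic signalling phosphorylates it (ENSMUSG00000038583, chromosome 10, 53337667 to 53345987, plus strand). It stood at 1149, 1135 and 1191 CPM in control and at 903, 902 and 967 CPM in GR-cKO. The groups did not overlap, and the log2 fold change was -0.33 ± 0.06 (edgeR, adjusted p = 0.00027). With libraries scaled by spike-in RNA this call was lost, at -0.23 and an adjusted p of 0.0732. Pln shares 1644 exonic bases with the antisense transcript Gm47644, which had 36 to 55 counts per library against 18104 to 24230 for Pln, and 141 with Cep85l. How reads from shared bases were assigned depends on a strand setting that is not given in the sources used here.

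Hrc encodes the histidine-rich calcium-binding protein of the store, which binds triadin and the pump (ENSMUSG00000038239, chromosome 7, 45335290 to 45338974, plus strand). It was at 46.8, 39.1 and 41.9 CPM in control and at 27.7, 32.6 and 27.3 CPM in GR-cKO, with no overlap. The log2 fold change was -0.54 ± 0.11 (edgeR, adjusted p = 0.000818), 1.46-fold lower, and resting on 531 to 976 counts per library.

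S100a1, an EF-hand protein that binds both the pump and the ryanodine receptor and raises calcium cycling in heart muscle, moved the other way (ENSMUSG00000044080, chromosome 3, 90511034 to 90514392, minus strand). It stood at 190.45, 179.7 and 169.8 CPM in control and at 216, 220.1 and 237 CPM in GR-cKO. All GR-cKO libraries were above all control libraries, with a log2 fold change of 0.32 ± 0.07 (edgeR, adjusted p = 0.00242).

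Ryr2, the ryanodine receptor through which the store empties, rose slightly (ENSMUSG00000021313, chromosome 13, 11553102 to 12106945, minus strand). It was at 319, 305 and 296 CPM in control and at 366, 357 and 333 CPM in GR-cKO. The groups were separate but close, with a log2 fold change of 0.20 ± 0.07 (edgeR, adjusted p = 0.044). Ryr1 and Ryr3 together had 12 to 57 counts per library, so nearly all ryanodine receptor counts were Ryr2.

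Casq2, cardiac calsequestrin, the buffer that holds calcium next to the release channel, rose too (ENSMUSG00000027861, chromosome 3, 102086415 to 102146514, plus strand). Its levels were 675, 609 and 596 CPM in control and 744, 745 and 680.3 CPM in GR-cKO. The lowest GR-cKO library was just above the highest control library, and the log2 fold change was 0.21 ± 0.06 (edgeR, adjusted p = 0.0343). The calls of both Ryr2 and Casq2 were lost when any 1 of control replicate 2, control replicate 3, GR-cKO replicate 1 or GR-cKO replicate 2 was left out. The adjusted p then lay between 0.146 and 0.149 for Ryr2 and between 0.104 and 0.158 for Casq2, with log2 fold changes of 0.17 to 0.19.

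Trdn encodes triadin, which ties calsequestrin to the ryanodine receptor (ENSMUSG00000019787, chromosome 10, 33080554 to 33476709, plus strand). It stood at 178, 175 and 155 CPM in control and at 160.2, 174 and 170.1 CPM in GR-cKO, with the GR-cKO values inside the control range. Its log2 fold change was -0.01, with a 95% interval of -0.16 to 0.14 (edgeR, adjusted p = 0.955). A change of more than 1.1-fold upward or to below 0.894 of control lay outside that interval, which holds only for TMM scaling. With libraries scaled to cardiomyocyte markers Trdn was called lower, at -0.33 (edgeR, adjusted p = 0.00138).

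Jph2 encodes junctophilin, which holds the store membrane against the surface membrane (ENSMUSG00000017817, chromosome 2, 163336242 to 163397993, minus strand). Its levels were 280.45, 223.5 and 223 CPM in control and 324, 303 and 209 CPM in GR-cKO. GR-cKO replicate 3 was the lowest of all 6 libraries, while the other 2 GR-cKO libraries were above all controls. The log2 fold change was 0.20 ± 0.11 (edgeR, adjusted p = 0.274), with a 95% interval of -0.03 to 0.44. Without GR-cKO replicate 3 it was 0.38 and passed (adjusted p = 0.00431). Without the filter on low counts it also passed, at 0.20 and an adjusted p of 0.0493.

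Slc8a1, the sodium-calcium exchanger of the surface membrane, was the scarcest of the 10 (ENSMUSG00000054640, chromosome 17, 81373105 to 81738377, minus strand). It stood at 20.7, 18.5 and 16.8 CPM in control and at 25.3, 17 and 15.7 CPM in GR-cKO. The GR-cKO libraries held both the highest and the lowest value. The log2 fold change was 0.05 ± 0.16 (edgeR, adjusted p = 0.889), with a 95% interval of -0.28 to 0.38, the widest of the 10. Its sign turned without control replicate 3 (-0.02) or without GR-cKO replicate 1 (-0.19).

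**Figure D1:**
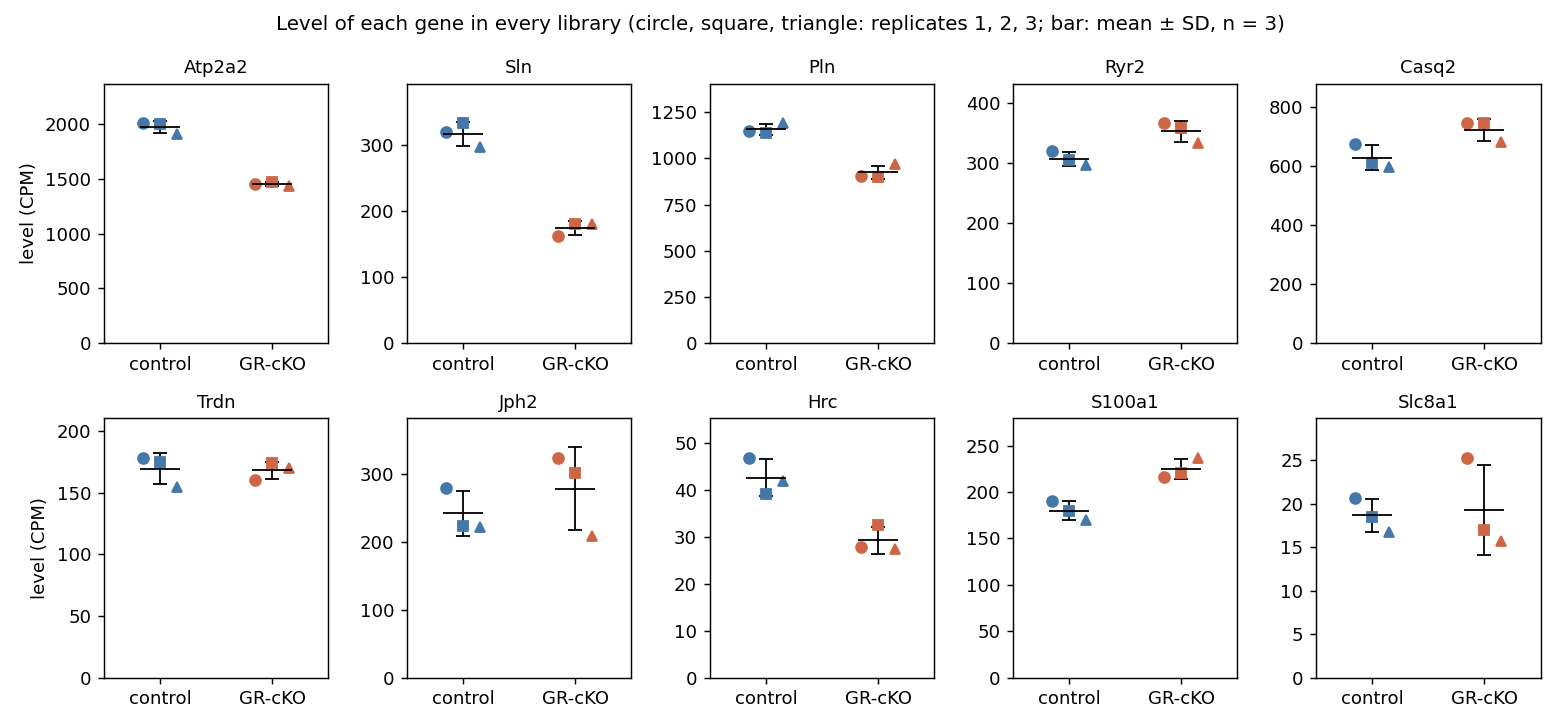
Level of each of the 10 genes in CPM (vertical axis, from 0) in every control and GR-cKO library, with replicates 1, 2 and 3 as circle, square and triangle and the mean ± SD as a bar (n = 3). Atp2a2, Sln, Pln and Hrc were lower and S100a1, Ryr2 and Casq2 higher on this scale in all 3 GR-cKO libraries, while Trdn, Jph2 and Slc8a1 overlapped.

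The genes differed in how steady they were between libraries of a group. Atp2a2 had a coefficient of variation of 2.95% in control and 1.31% in GR-cKO, and Pln one of 2.52% and 4.06%. Jph2 varied by 13.6% and 22%, although counting alone would give 1.57% at its lowest count of 4059. Slc8a1 varied by 10.4% and 26.9%, where counting alone at its lowest count of 304 gives 5.74%. Both Jph2 and Slc8a1 were highest in replicate 1 of either group.

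Ratios of counts within a library do not depend on how libraries are scaled. Per 100 Atp2a2 counts there were 15.87, 15.2 and 15.52 Ryr2 counts in control and 25.08, 24.24 and 23.15 in GR-cKO. The release channel was higher relative to the pump in every GR-cKO library, by 0.64 ± 0.04 on the log2 scale (SE). Sln went from 15.97, 16.64 and 15.65 per 100 Atp2a2 counts in control to 11.16, 12.25 and 12.59 in GR-cKO, a log2 difference of -0.42 ± 0.06 without overlap. Relative to the pump it inhibits, Sln was lower in every GR-cKO library. Pln stood at 58.7 ± 3.24 per 100 Atp2a2 counts in control and at 63.5 ± 3.37 in GR-cKO (SD, n = 3 each), with overlapping libraries and a log2 difference of 0.11 ± 0.06. Slc8a1 stood at 0.943 ± 0.0764 and 1.32 ± 0.354 per 100 Atp2a2 counts, with no overlap but a wide spread in GR-cKO. That log2 difference was 0.46 ± 0.22, and 0.25 without GR-cKO replicate 1.

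The ratio of Casq2 to Ryr2 was nearly level over all 6 libraries. Per 100 Ryr2 counts there were 211.7, 199.9 and 201.4 Casq2 counts in control and 203.5, 208.4 and 204.6 in GR-cKO, a log2 difference of 0.01 ± 0.03. Jph2 stood at 78.8 ± 7.93 and 78.7 ± 13.9 per 100 Ryr2 counts. In exact two-sided permutation tests of the 6 ratios, those of Ryr2, Sln and Slc8a1 to Atp2a2 reached p = 0.1, the smallest that 3 libraries against 3 allow (adjusted over the 6 ratios, 0.2). The permutation p was 0.3 for Pln to Atp2a2, 0.8 for Casq2 to Ryr2 and 1 for Jph2 to Ryr2. None could reach 0.05 in this design.

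**Figure D2:**
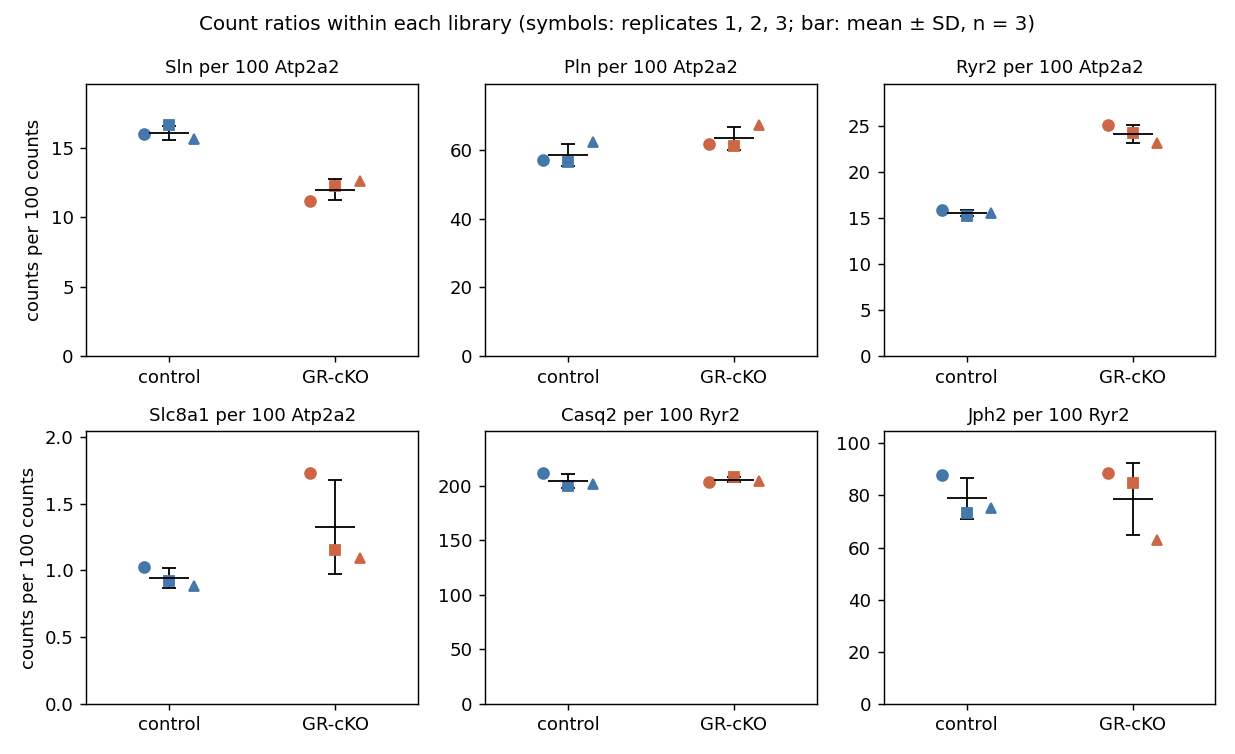
Counts of 1 gene per 100 counts of another in each library (vertical axis, from 0), with replicates 1, 2 and 3 as circle, square and triangle and the mean ± SD as a bar (n = 3). Ryr2 per 100 Atp2a2 was 15.5 ± 0.337 in control and 24.2 ± 0.97 in GR-cKO, while Casq2 per 100 Ryr2 was 204 ± 6.43 and 206 ± 2.57.

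How libraries were scaled changed which of the 10 genes passed. With ERCC spike-in RNA as the scale, the median log2 fold change of all tested genes was 0.087. Then 3 of the 10 genes were higher and 3 lower, Pln no longer passing, where 1355 of all 14386 tested genes were higher and 522 lower. Relative to the summed counts of the 10 cardiomyocyte markers, the median of all genes was -0.331. That sum, to which Actc1 added much, was itself higher in GR-cKO, though not every marker was. On that scale 5 of the 10 were lower, Trdn at -0.33 joining Atp2a2 (-0.76), Sln (-1.19), Pln (-0.65) and Hrc (-0.87), and none was higher. Lower calls were common on it, with 6007 of all 14386 tested genes lower and 454 higher. Ryr2 and Casq2 then had log2 fold changes of -0.13 and -0.12, and S100a1 one of 0.00, none past the threshold. Atp2a2, Sln and Hrc were lower under all 12 alternatives that were run.

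**Figure D3:**
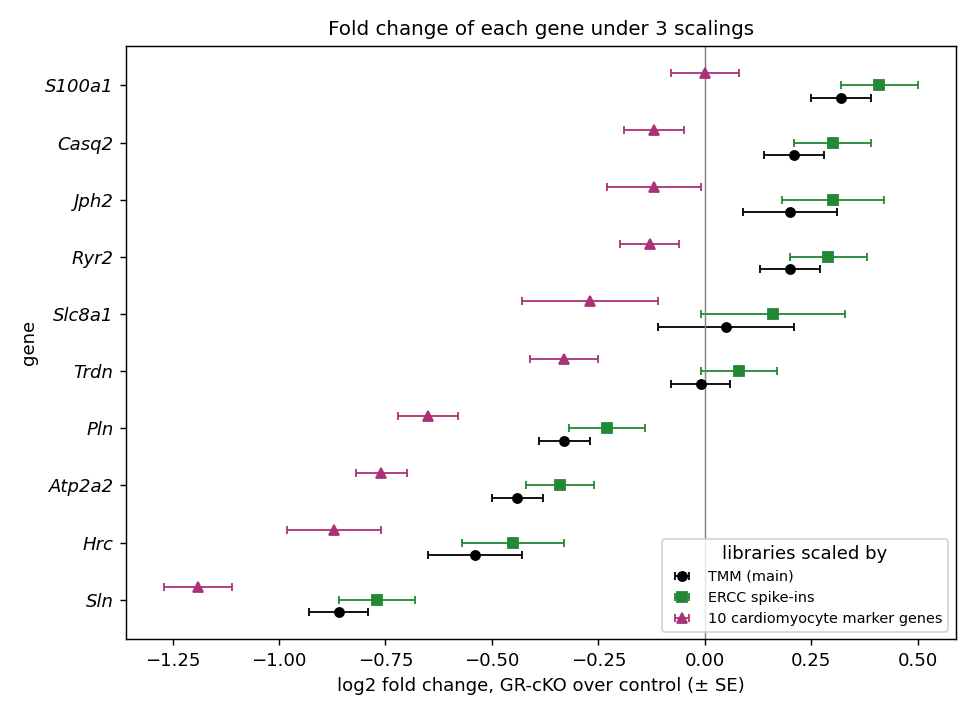
Log2 fold change of GR-cKO over control (horizontal axis, points with SE) for each of the 10 genes (vertical axis) with libraries scaled by TMM factors (circles), by ERCC spike-ins (squares) or by 10 cardiomyocyte marker genes (triangles). Sln, Hrc, Atp2a2 and Pln lie below 0 on every scale, while Ryr2, Casq2, Jph2 and Slc8a1 lie above 0 on the first 2 scales and below it on the third.

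The wider machinery of calcium handling was examined by role. Counts and values are on the TMM scale, and each list's counts on the spike-in (ERCC) scale and on the cardiomyocyte marker scale follow them. On the marker scale at most 1 gene of any of these 9 lists was higher. Beside these counts, 454 of all 14386 tested genes were higher and 6007 lower on the marker scale. On the ERCC scale 1355 were higher and 522 lower. Of 15 tested regulators and relatives of the pump, none rose and 2 fell, with none and 1 on the ERCC scale and none and 7 on the marker scale. Ppp1r3a, a targeting subunit of protein phosphatase 1, was at 9.67 ± 0.803 CPM in the controls and at 5.15 ± 1.99 CPM in the GR-cKO libraries, a log2 fold change of -0.90 ± 0.24 (edgeR, adjusted p = 0.0123). The list's median was 0.10. Atp2a1, the pump of fast skeletal muscle, had 0 to 7 counts per library and Mrln, which encodes a micropeptide inhibitor of the pump in skeletal muscle, 0 to 19, and neither could be tested.

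Among 15 tested partners and relatives of the release channel, 2 rose and 2 fell, with a median of 0.00. The ERCC scale gave 2 higher and none lower, and the marker scale 1 higher and 9 lower (median -0.33). Casq1, the skeletal calsequestrin, had 131, 119.8 and 112 CPM in control and 187, 221 and 187 CPM in GR-cKO. It rose 1.64-fold without overlap (edgeR, adjusted p = 7.14e-07). Casq2 accordingly made up 83.8% ± 0.307 of calsequestrin counts in control and 78.5% ± 1.41 in GR-cKO (SD, n = 3 each). Of 5 skeletal muscle markers with enough counts, Tnnt3 rose, from 6.03 ± 1.4 to 13.98 ± 2.26 CPM, and Ckm, also a heart gene, fell. Their summed level was 189.4 to 208.5 CPM in control and 157.4 to 170.2 CPM in GR-cKO. Ckm made up 83.1% to 92.7% of that sum, and the other 4 summed to 14.82 to 15.18 CPM in control and to 21.58 to 26.61 CPM in GR-cKO. Of those 4 only Tnnt3 passed. Tnni2 had a log2 fold change of 0.62, and Mylpf (-0.49) and Myog (-0.48) pointed down. Pax7 was at 0 in all libraries and Myod1 had 0 to 7 counts. The part of these markers in the rise of Casq1 was not tested. Akap6, the scaffold that gathers protein kinase A at the ryanodine receptor, rose by 0.34 ± 0.08 on the log2 scale. Calm2, a calmodulin gene whose product restrains the channel, fell by 0.25 on that scale. Casq1 was higher on all 3 scales, Akap6 not on the marker scale (0.01), and Calm2 did not pass on the ERCC scale (-0.15).

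Of 12 tested genes for inositol trisphosphate receptors, store-operated entry and general calcium-binding proteins of the endoplasmic reticulum, 4 fell and none rose, with a median of -0.07. With ERCC scaling 1 was higher and 2 lower (median 0.02), and with marker scaling none was higher and 9 lower (median -0.40). All 4 that fell encode general luminal or membrane proteins of that compartment. Calr, calreticulin, stood at 894 ± 42.7 CPM in control against 514.5 ± 19.3 CPM in GR-cKO (edgeR log2 fold change -0.80 ± 0.06, adjusted p = 1.55e-09). The chaperones Hspa5 and Canx had log2 fold changes of -0.45 ± 0.06 and -0.32 ± 0.06, and Rcn1 one of -0.29 ± 0.07. On the ERCC scale Canx (-0.23) and Rcn1 (-0.20) did not pass, and Itpr2 was higher (0.35). Itpr1, Itpr2 and Itpr3 did not pass on the TMM scale.

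Of 14 tested genes of calcium entry at the surface and its beta-adrenergic control, 5 rose and 1 fell, with a median of 0.31. The counts were the same with ERCC scaling, but relative to cardiomyocyte markers none was higher and 2 were lower (median -0.02), Cacna1c standing at 0.21 (adjusted p = 0.0717, edgeR). Cacna1c, the pore of the L-type channel that triggers release, rose from 47.6, 44.5 and 45.8 CPM to 60.9, 67.8 and 71.5 CPM (0.54 ± 0.09, adjusted p = 0.000137, edgeR). Its auxiliary subunit gene Cacna2d1 rose by 0.39 ± 0.07, and Rrad, an inhibitor of the same channel, by 0.30 ± 0.07. Cacna1g, a T-type channel, fell from 45.2 ± 6.27 to 30.6 ± 2.02 CPM.

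For removal of calcium and sodium at the surface, 1 of 8 tested genes rose and 1 fell (median 0.10), as with ERCC scaling, against none and 3 on the marker scale. Atp1b1, a subunit of the sodium pump, rose from 539 ± 33.1 to 645 ± 2.01 CPM. Of 8 genes of the T-tubule and dyad, Tcap, a titin-binding protein also placed at T-tubules, fell (-0.65 ± 0.07) and Dysf, a membrane repair protein, rose (0.44 ± 0.08), with a median of 0.05. ERCC scaling gave the same counts, and marker scaling none higher and 3 lower. Of 12 genes of mitochondrial calcium transport only Vdac1, an outer membrane channel, passed, at 0.20 ± 0.07 (median 0.12), and the uniporter Mcu did not. Vdac1 was also higher with ERCC scaling, while marker scaling left none higher and 5 lower.

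Of 8 tested EF-hand proteins other than S100a1, 3 fell and 1 rose (median -0.13), against 2 and 2 with ERCC scaling and 6 and none with marker scaling. S100a6 (-0.47 ± 0.06), S100a4 (-0.52 ± 0.06) and S100a10 (-0.21 ± 0.07) fell, the opposite direction to S100a1 on the TMM scale. The myofilament calcium sensor Tnnc1 rose (0.46 ± 0.06). S100a10 did not pass on the ERCC scale (-0.11), nor did S100a1 (0.00) and Tnnc1 (0.14) on the marker scale. Of 9 calcineurin and NFAT genes 3 rose and 1 fell (median 0.06). ERCC scaling gave 3 higher and none lower, and marker scaling 1 higher, Rcan1, and 5 lower (median -0.26). Rcan1, a calcineurin inhibitor that calcineurin itself induces, rose 2.63-fold, from 169, 180 and 208 CPM to 499, 494 and 471 CPM. Rcan2 and Nfatc4 rose by 0.27 ± 0.06 and 0.47 ± 0.12, and Ppp3ca, a catalytic subunit, fell from 207 ± 3.44 to 178 ± 9.39 CPM.

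**Figure D4:**
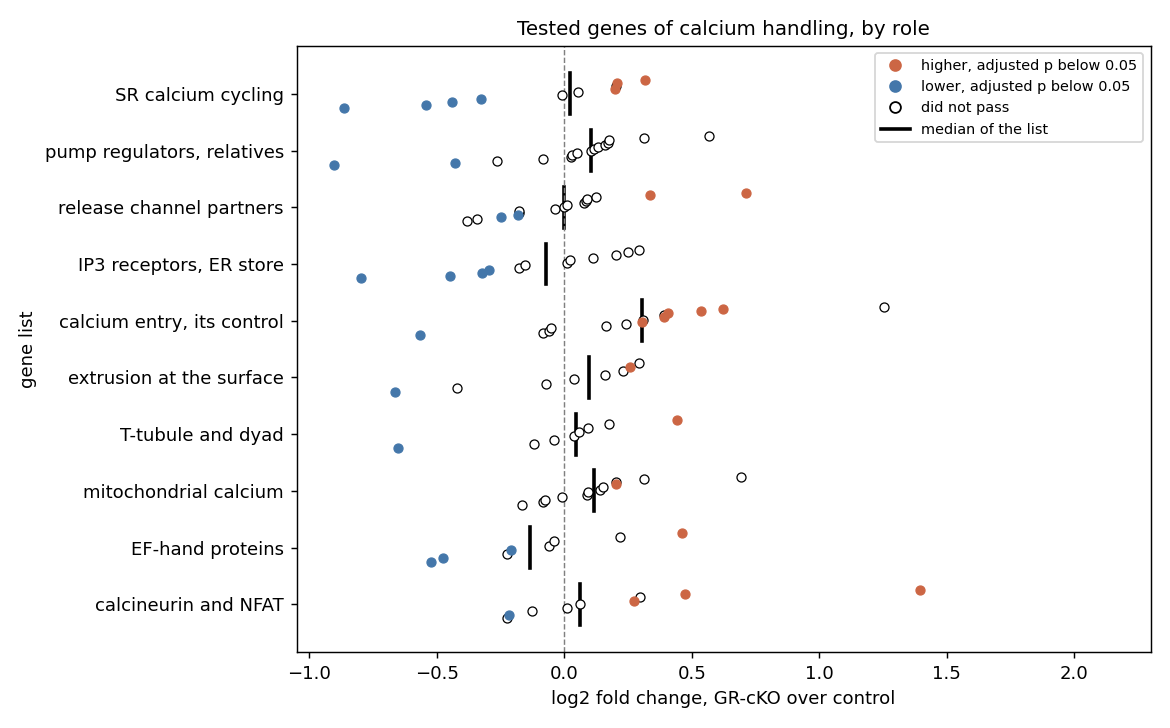
Log2 fold change of GR-cKO over control (horizontal axis) for each tested gene of 10 lists of calcium handling (vertical axis, by role), with filled points for genes past an adjusted p of 0.05 and bars for list medians. The 10 sarcoplasmic reticulum genes spread from -0.86 to 0.32 around a median of 0.02, and the calcium entry list has the highest median, 0.31, which is -0.02 relative to cardiomyocyte markers.

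Genes whose profile over the 6 libraries was nearest to that of Atp2a2, among 6318 protein-coding genes of at least 20 CPM, were Flrt2, Alcam and Cdip1. Their root mean square differences from Atp2a2 in centred log2 CPM were 0.019, 0.029 and 0.029. Nearest to Sln were Dbf4, Tm4sf1 and Dut, at 0.041, 0.049 and 0.052. With 2 groups of 3, this likeness mostly reflects a similar difference between the groups.

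Markers of other heart cells were present, and some differed between the groups. Of 10 fibroblast markers 5 rose and 1 fell, with summed levels of 3646 to 3844 CPM in control and 4756 to 4875 CPM in GR-cKO. Of 8 endothelial markers 6 rose and 1 fell (907.7 to 938.3 and 1140.0 to 1223 CPM), and 4 of 7 markers of smooth muscle and pericytes rose, with none lower (3587 to 3694 and 4198 to 4415 CPM). Of 7 ventricular markers 2 rose and 2 fell (12060.0 to 13310.0 and 15680.0 to 17760.0 CPM). Of 5 tested leukocyte markers 2 rose and none fell, with sums of 13.5 to 17.15 CPM in control and 33.75 to 53.9 CPM in GR-cKO. Lyz2 made up 76.5% to 88.6% of that sum, and the other 4 summed to 2.624 to 3.165 CPM in control and 4.156 to 6.953 CPM in GR-cKO. Acta2 made up 88.6% to 90.7% of the smooth muscle and pericyte sum, and Myl3 62.2% to 71.4% of the ventricular sum. Of 6 epicardial markers 2 rose and 2 fell, and none of 5 pacemaker and conduction markers and of 2 tested neural markers passed. With marker scaling the counts were 1 higher and 3 lower for fibroblasts, 3 and 1 for endothelium, 2 and 2 for smooth muscle and pericytes, and 1 and 3 for ventricular markers. They were 2 and none for leukocytes, 1 and 4 for epicardial, none and 2 for pacemaker and none and 1 for neural markers. Their part in the changes of the 10 genes was not tested.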

How the data were processed

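Libraries were made from 100 ng of total RNA with the QuantSeq 3' forward kit, per the labels' protocols, so a gene is counted near its polyadenylated end. The authors deposited raw counts per gene, 1 table per library. The submitters' processing notes name cutadapt 1.16, STAR 2.5.4a, featureCounts 1.6.2, DESeq2 1.18.1 and the build GRCm38. Of 52649 rows, 52550 were genes, and 92 ERCC and 7 SIRV spike-in rows (1.98% to 2.36% of counts) stayed out of library sizes and tests. GENCODE M21 gave symbols for 52403 genes.

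Here GR-cKO was compared with control by edgeR's quasi-likelihood test (edgeR 4.0.16, R 4.3.3) with TMM factors and the default filter on low counts, Benjamini-Hochberg adjustment over 14386 genes and a threshold of 0.05. The script was tested on simulated data. Levels are CPM scaled by TMM. A standard error is the log2 fold change divided by the square root of F. Libraries of 1 group were not copies of each other, since the mean chi-square per gene between them was 7.57 to 15.3, and all 6 were kept. That value cannot tell separate animals from separate preparations of the same cells. Where a count is 0, up to 0.133 to 0.155 CPM before TMM scaling is allowed (3 counts, counting error only).

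The 10 genes, the 6 ratios and the gene lists were chosen with earlier results of these data known. All 10 genes are named. From each pathway list up to 4 genes past the threshold with the smallest p were taken, and other names (Itpr1, Itpr2, Itpr3, Mcu) were chosen after their values were seen. Some genes that this rule takes are not reported here. Strit1 had no row under that symbol. Alternatives were RLE factors, DESeq2 1.42.0, no filter, ERCC scaling, cardiomyocyte marker scaling, a replicate block and leaving out each library. List sums without the most abundant gene were added after the data were seen.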

Additional observations from a re-analysis of the deposited data

How the results depend on the processing

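Over 12 alternatives, 97 of 120 log2 fold changes of the 10 genes kept their direction and their side of the threshold, 3 gained a call and 11 changed sign. Of the 84 values of the 7 called genes 12 lost the call, 9 with the same sign and 3 with a change of sign. Changes of sign were Trdn with ERCC scaling (0.08), Ryr2 (-0.13), Casq2 (-0.12), Jph2 (-0.12), S100a1 (0.00) and Slc8a1 (-0.27) with cardiomyocyte marker scaling, and, when 1 library was left out, Trdn (range -0.07 to 0.03) and Slc8a1 (-0.19 to 0.19). The marker scale is itself higher in GR-cKO, which lowers every value. Higher genes among the 10 numbered 3, but none with that scaling and 1 to 4 when 1 library was left out, where the lower genes stayed at 4. RLE factors and DESeq2 each gave 3 higher and 4 lower among the 10. Over all genes 1097 were higher and 1035 lower, against 1355 and 522 with ERCC scaling and 454 and 6007 with marker scaling. Leaving out 1 library gave 842 to 993 higher and 726 to 889 lower. The log2 difference of Casq2 to Ryr2 ranged from -0.01 to 0.03 and that of Jph2 to Ryr2 from -0.11 to 0.14. The cause of these shifts was not tested.

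Replicate numbers are shared between groups, but same-numbered libraries did not deviate together, with correlations of 0.00, 0.04 and 0.02. With the replicate number as a block, 1201 genes were higher and 1152 lower, and of the 10 genes 3 and 4 as before. The paired log2 difference of Ryr2 to Atp2a2 was 0.64, with an exact sign-flip p of 0.25, the smallest that 3 pairs allow.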
